A study of Mus musculus with 6 samples.

Results

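Optineurin (Optn), 3 further selective autophagy receptor genes, the scaffold gene Rb1cc1 and the 5 mouse ATG8 family genes were followed across wild-type and Ki-67 knockout fibroblasts. The 10 genes were taken by symbol from 54146 counted gene identifiers. Optn was selected on its fold change between knockout and WT libraries, already known to be among the largest rises, and the other 9 were listed with it as members of the same pathway. All 10 passed the filter on low counts and stood among 13120 genes tested. Each of 3 groups held 2 libraries of total RNA. The first was wild-type (WT) NIH/3T3, an immortalised line of mouse embryo fibroblasts. The other two were clone 1 and clone 2 of the same line with genotype Mki67-/-, which lack an intact gene for the proliferation antigen Ki-67. All cells were grown in medium with 10% foetal bovine serum and labelled as from Swiss albino mouse embryos. Each knockout line is 1 clone, so a difference of a clone from WT cannot be told apart from a difference between clones of the line. The WT cells are not said to be a clone.

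Selective autophagy removes ubiquitin-tagged aggregates, damaged mitochondria and bacteria. Receptor proteins bind the cargo on one side and, through a short LC3-interacting motif, an ATG8 protein on the growing membrane on the other. The ATG8 proteins fall into the LC3 and GABARAP subfamilies and are attached to a membrane lipid before they act. The FIP200 protein, encoded by Rb1cc1, is the scaffold of the ULK1 kinase complex that starts the process, and the receptors can recruit it.

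The shallowest library, WT replicate 1, held 3873249 gene counts and the deepest, the first of clone 1, held 19678782, so the WT level of a weak gene is the least precise. Mki67 had 49.2 and 55.2 CPM (counts scaled to library size with TMM factors) in WT and 4.24 to 7.69 CPM in the knockout libraries. The protocol text names 4T1, a mammary tumour line, whereas titles and sources name NIH/3T3. The marker sums that follow are CPM on the total gene counts of a library, without TMM factors. The 7 epithelial markers summed to at most 1.17 CPM in any library, with Epcam and Krt19 at 0 counts. The 8 fibroblast markers summed to 8535 to 9986 CPM in WT and 6949 to 7839 CPM in the knockouts. Markers of macrophages and leukocytes summed to 19.2 to 23.8 CPM in WT and 31.6 to 36.3 CPM in the knockouts, with Adgre1 at 0 counts. Endothelial markers summed to 36.7 to 43.8 CPM and 12.3 to 23.0 CPM, with Kdr at 0 counts. Skeletal muscle markers summed to 8.52 to 9.14 CPM and 11.3 to 35.4 CPM, with Myod1, Myog and Myf5 at 0 counts. The part of these marker shifts in the results was not tested. WT replicate 2 exceeded WT replicate 1 by a median of 0.26 on the log2 scale over the genes of lowest GC content (GC class 1 of 5 equal classes), and by −0.14 over those of highest (class 5). In clone 1 the same medians of replicate 2 minus replicate 1 were 0.22 and −0.13. In clone 2 they were −0.03 and 0.10.

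Optn (ENSMUSG00000026672, chromosome 2, 5020642 to 5064051 in GRCm38, minus strand) encodes a receptor that binds ubiquitin and takes part in the removal of damaged mitochondria and bacteria. It had 7 and 31 counts in the WT libraries, which is 1.90 and 2.80 CPM. The level was 21.8 and 23.8 CPM in the clone 1 libraries, with 18.2 and 15.8 CPM for clone 2. Every knockout library lay above both WT libraries, the lowest of them at 5.64 times the higher WT value. The log2 fold change was 3.16 ± 0.23 (SE) in clone 1, 2.74 ± 0.24 in clone 2 and 2.95 ± 0.22 in the mean of both clones. These values chose the gene, so they are given as a description with no test. In bulk RNA, fewer cells with a transcript and less of it per cell cannot be told apart.

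**Figure D1:**
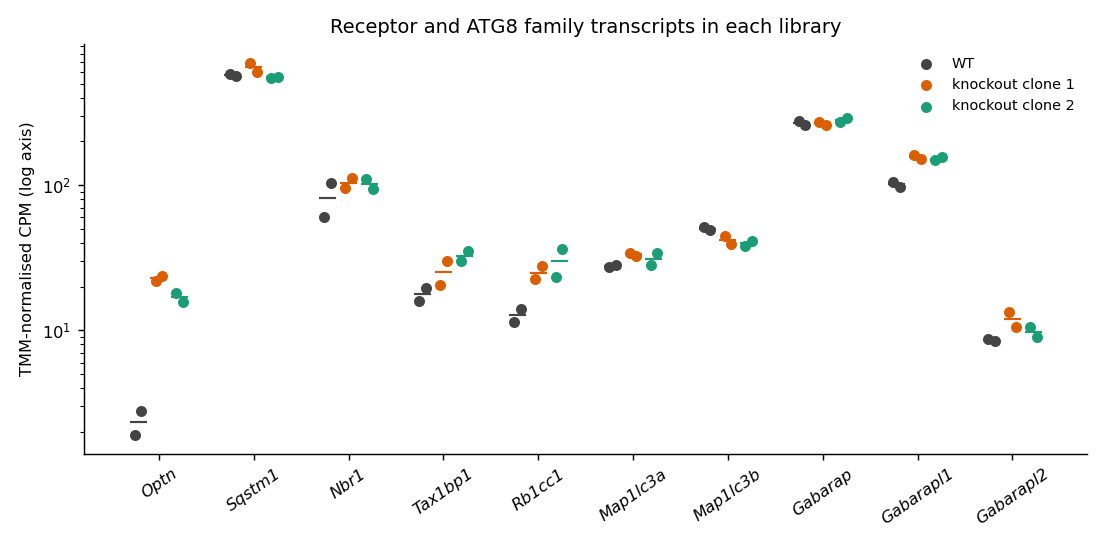
Level of each member in each library, as TMM-normalised CPM on a log axis. Points are single libraries and short lines the means of 2 libraries. Optn lies at 1.90 and 2.80 CPM in WT and at 15.8 to 23.8 CPM in the knockout libraries, while Gabarap and Sqstm1 overlap between groups.

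The difference between the clones is a separate comparison from the rise that chose Optn, but it uses the same knockout libraries. Optn stood lower in both clone 2 libraries than in both clone 1 libraries, a log2 difference of −0.42 ± 0.16 (95% interval −0.77 to −0.07). This difference missed the threshold after adjustment over all genes (edgeR quasi-likelihood, unadjusted p = 0.0210, adjusted p = 0.206). Between clones, 3.54% of all genes were called in either direction, and 0 of the 10 members were. By the same test, 1 of the 10 members had an unadjusted p below 0.05. DESeq2 and limma-voom also called 0 of them. The interval for the smallest difference between clones, that of Nbr1 (−0.02), ran from −0.43 to 0.39. Sqstm1, at −0.24 ± 0.13, had an interval of −0.52 to 0.04, so moderate differences between clones remain possible for the receptors.

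Apart from Optn, 3 of the other 9 members rose in the mean of both clones and 0 fell. Those were Rb1cc1, Gabarapl1 and Tax1bp1. Among all genes tested 16.6% were called higher, 18.2% lower and 34.8% in either direction. The share of the 9 called in either direction is near the share of all genes called, so the count is not a result about the list. The median log2 fold change of the 9 was 0.30, against 0.00492 over all genes. In clone 1, 2 of the 9 rose and 0 fell, where 15.2% of all genes were called higher, 16.5% lower and 31.7% in either direction. In clone 2, 3 of the 9 rose and 0 fell, against 12.9% higher, 14.5% lower and 27.4% in all. The comparisons of each clone with WT share the same WT libraries. All 4 knockout libraries lay above both WT libraries for 5 of the 9, as they did for 25.1% of all genes, and below both for Map1lc3b, as for 24.7% of all genes.

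**Figure D2:**
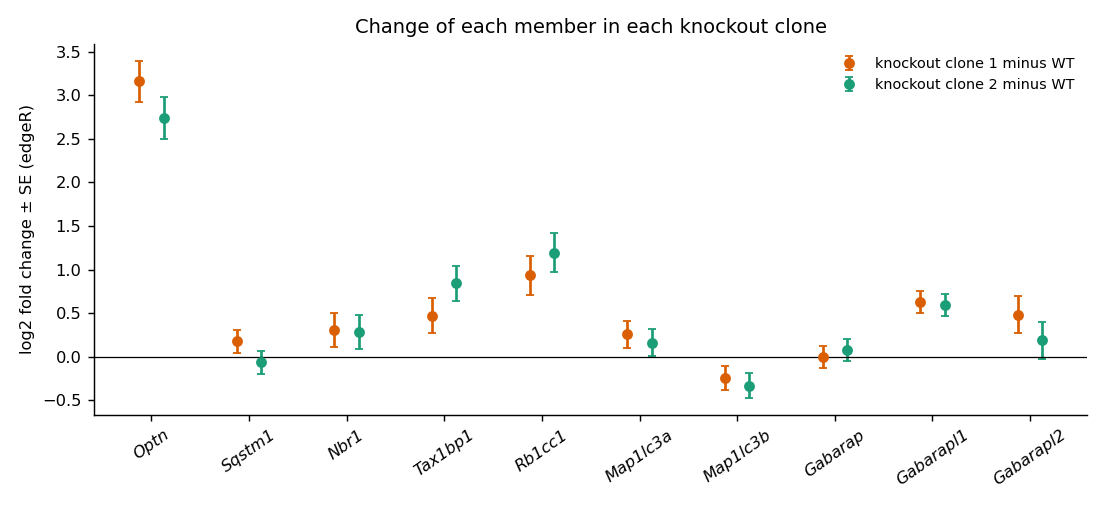
Log2 fold change of each member against WT in clone 1 and clone 2, with the SE from edgeR. Optn lies near 3 in both clones, Rb1cc1 near 1, and Sqstm1 and Gabarap lie near 0.

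Tax1bp1 (ENSMUSG00000004535, chromosome 6, 52713729 to 52766780) encodes a ubiquitin-binding receptor related to NDP52. Its level was 16.0 and 19.6 CPM in WT, 20.6 and 29.9 CPM in the clone 1 libraries, with 30.0 and 35.2 CPM for clone 2. The groups did not overlap, although clone 1 replicate 1 was only 1.05 times the higher WT value. The log2 fold change was 0.66 ± 0.18 in the mean (edgeR adjusted p = 0.0124) and 0.84 ± 0.20 in clone 2 (adjusted p = 0.00717). In clone 1 it was 0.47 ± 0.20, which was not called (adjusted p = 0.0902). The difference between the clones was 0.37 with an interval of −0.02 to 0.76, and it was not called (adjusted p = 0.349). Fitting out GC content and length brought the mean change to 0.25 and ended the call (adjusted p = 0.169). It also ended the call in clone 2 (0.41, adjusted p = 0.0577), as did leaving out clone 2 replicate 2 (0.72, adjusted p = 0.0601). The clone 1 change was called without the low-count filter (0.53, adjusted p = 0.0240), without WT replicate 2 (0.66, adjusted p = 0.0225) or without clone 1 replicate 1 (0.72, adjusted p = 0.0140). It was 0.17 without clone 1 replicate 2 and 0.10 with GC and length fitted out (adjusted p = 0.660), and was called in neither.

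Nbr1 (ENSMUSG00000017119, chromosome 11, 101552149 to 101581951), a receptor of similar build to p62, was at 59.8 CPM in WT replicate 1 and 104 CPM in WT replicate 2. The knockout libraries lay between 93.6 and 112 CPM. One WT library thus stood far below the rest and the other stood among the knockouts. The log2 fold change in the mean was 0.30 ± 0.17 and was not called (adjusted p = 0.203). Without WT replicate 2 it was 0.79 and was called (adjusted p = 1.12e-05), and without WT replicate 1 it was −0.02 (adjusted p = 0.946). Leaving out WT replicate 2 also gave calls in clone 1 (0.80) and clone 2 (0.78), and fitting without the low-count filter gave one in the mean (0.35, adjusted p = 0.0352). A direction for Nbr1 therefore rests on which WT library is used.

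Sqstm1 (ENSMUSG00000015837, chromosome 11, 50199366 to 50210827), the gene of p62, which gathers ubiquitin-tagged cargo into condensates, was the most abundant receptor transcript per length. It had 585 and 566 CPM in WT, 697 and 604 CPM in the clone 1 libraries, with 545 and 556 CPM for clone 2. Both clone 1 libraries lay above WT and both clone 2 libraries below it, by less than the test resolves. The log2 fold change was 0.18 ± 0.13 in clone 1 (adjusted p = 0.336) and −0.07 ± 0.13 in clone 2 (adjusted p = 0.754). The 95% interval of the mean change ran from −0.19 to 0.30. In clone 1 the gene was called higher once GC and length were fitted out (0.31, adjusted p = 0.0410). Mrnip, a gene on the opposite strand, covers 17.3% of the Sqstm1 exon bases, and reads on the opposite strand were 1.52% of those counted for Sqstm1 on both strands.

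Set per exon length within a library, p62 transcripts dominated the receptor genes in every group. Sqstm1 held 94.2% and 90.4% of the summed length-scaled level of the 4 receptors in the WT libraries and 87.1% to 90.5% in the knockouts. The Optn share was 0.274% and 0.399% in WT and 2.25% to 3.08% in the knockouts. Nbr1 held 4.70% to 8.65% over the 6 libraries and Tax1bp1 0.866% to 1.88%. In TPM, which scales counts by exon length within a library, the WT order was Sqstm1, Nbr1, Tax1bp1 and Optn. Optn had 0.639 and 1.02 TPM there, below the 2.02 and 2.69 TPM of Tax1bp1. In both clones Optn (6.69 to 11.3 TPM) stood above Tax1bp1 (3.59 to 5.61 TPM) in each library. That change of order held in clone 1 but not in clone 2 when the longest transcript served as length, where Optn had 10.3 and 8.52 TPM and Tax1bp1 10.5 and 11.7 TPM. The share of Optn rests on the values that chose it.

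**Figure D3:**
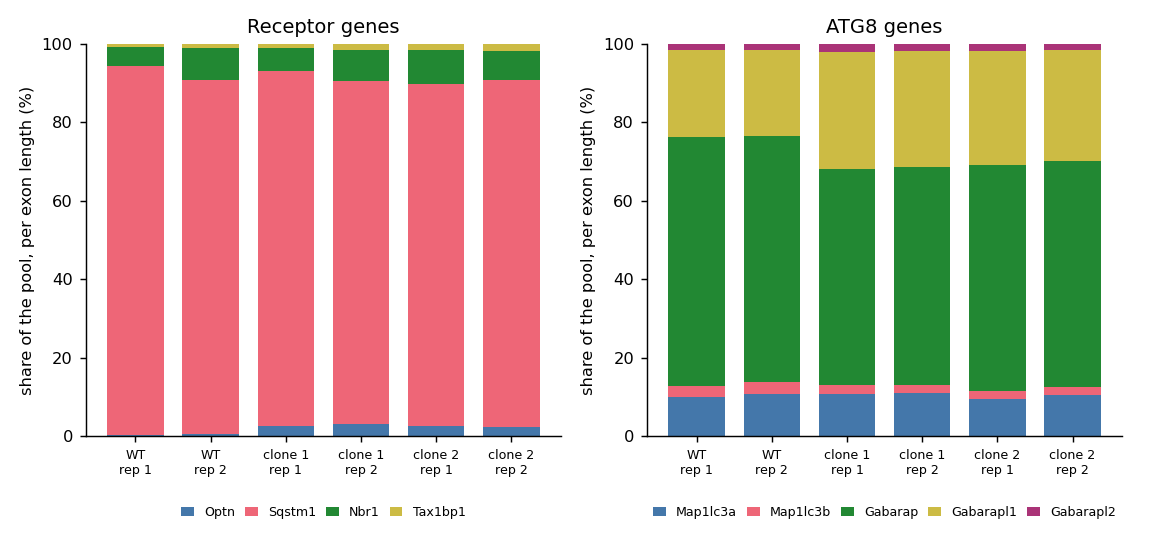
Share of each gene in the summed length-scaled level of the 4 receptor genes (left) and the 5 ATG8 genes (right), in percent, for each library. Sqstm1 fills 87.1% to 94.2% of the receptor bars, and Gabarapl1 widens from 21.8% and 22.1% in WT to 28.4% to 29.8% in the knockouts.

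Rb1cc1 (ENSMUSG00000025907, chromosome 1, 6206197 to 6276648) had the largest change among the members other than Optn. Its level was 11.4 and 14.0 CPM in WT, 22.4 and 27.6 CPM in the clone 1 libraries, with 23.4 and 36.3 CPM for clone 2. Every knockout library was at least 1.60 times the higher WT value. The rise was 0.94 ± 0.22 in clone 1 (edgeR adjusted p = 0.00642), 1.19 ± 0.22 in clone 2 (adjusted p = 0.00168) and 1.06 ± 0.20 in the mean (adjusted p = 0.00132). The other 4 genes of the ULK complex, Ulk1, Ulk2, Atg13 and Atg101, were not called. The kinase genes Ulk1 and Ulk2 were at −0.09 ± 0.14 and 0.40 ± 0.17, Atg13 at 0.30 ± 0.15 and Atg101 at −0.11 ± 0.12. Of all genes tested, 34.8% were called in either direction. A processed pseudogene, Gm13961, matches 4807 bases of the Rb1cc1 transcript at 94.8% identity. It had at most 1 count in any library, and none of the 12 processed pseudogenes of the members had more than 2. With GC and length fitted out, the Rb1cc1 change was 0.63 in the mean (adjusted p = 0.0138), 0.54 in clone 1 and 0.72 in clone 2, and stayed called in each.

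Among the ATG8 genes, 1 of 5 rose and 4 were not called, near the 16.6% of all genes called higher and 34.8% called in either direction, so the count says nothing about the family. Gabarapl1 (ENSMUSG00000030161, chromosome 6, 129533160 to 129542346), a GABARAP subfamily member, had 105 and 97.5 CPM in WT, 160.3 and 151 CPM in the clone 1 libraries, with 149 and 156 CPM for clone 2. The groups were well apart, and the lowest knockout value was 1.42 times the highest WT value. The log2 fold change was 0.63 ± 0.13 in clone 1 (edgeR adjusted p = 0.00208), 0.59 ± 0.13 in clone 2 (adjusted p = 0.00355) and 0.61 ± 0.11 in the mean (adjusted p = 9.67e-04). In clone 2 the call was lost without clone 2 replicate 2 (0.55, adjusted p = 0.0512). The noncoding gene 1700101I11Rik shares 28.3% of the Gabarapl1 exon bases on the opposite strand, and opposite-strand reads were 0.177% of those at Gabarapl1.

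Gabarap (ENSMUSG00000018567, chromosome 11, 69991143 to 69994951), the founding member of its subfamily, was the most abundant ATG8 transcript per length and differed little between groups. It had 275 and 257 CPM in WT, 272 and 259 CPM in the clone 1 libraries, with 271 and 290.0 CPM for clone 2. The log2 fold change in the mean was 0.04 ± 0.11 (95% interval −0.19 to 0.27, adjusted p = 0.812), so a change as large as that of Gabarapl1 lies outside the interval.

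Map1lc3b (ENSMUSG00000031812, chromosome 8, 121590361 to 121598760) encodes LC3B, the protein most used to mark autophagosomes. It had 51.1 and 49.2 CPM in WT, 44.7 and 39.5 CPM in the clone 1 libraries, with 38.3 and 41.2 CPM for clone 2. All knockout libraries lay below WT, yet the log2 fold change of −0.29 ± 0.12 missed the threshold (unadjusted p = 0.0323, edgeR adjusted p = 0.0801). Map1lc3a (ENSMUSG00000027602, chromosome 2, 155276297 to 155278073), the LC3A gene, had 27.4 and 28.1 CPM in WT and 28.2 to 34.1 CPM in the knockouts. Its change was 0.21 ± 0.14 (adjusted p = 0.260), and it was called only once GC and length were fitted out (0.50, adjusted p = 0.00380). Gabarapl2 (ENSMUSG00000031950, chromosome 8, 111940703 to 111953612), also known as GATE-16, had 8.69 and 8.48 CPM in WT and 8.93 to 13.3 CPM in the knockouts. Its change was 0.34 ± 0.19 (adjusted p = 0.189). Reads with several matches are listed apart from the gene counts in the deposited files. Gabarapl2 has 6 processed pseudogenes of 90.8% to 99.4% identity and Map1lc3b has 5 of 94.0% to 99.6%, so the levels of these genes may be undercounted.

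Within a library, the length-scaled order of the ATG8 genes was the same in all 6. Gabarap came first, then Gabarapl1, Map1lc3a, Map1lc3b and Gabarapl2, and the order held with the longest transcript as length. In WT the levels were 188 and 191 TPM for Gabarap, 65.5 and 66.5 TPM for Gabarapl1 and 29.3 and 32.6 TPM for Map1lc3a. The last neighbours were closest in clone 1, where Map1lc3b had 10.3 and 9.36 TPM and Gabarapl2 9.94 and 8.09 TPM, a gap within the spread of the replicates. Gabarapl1 made up 22.1% and 21.8% of the ATG8 sum in WT, 29.8% and 29.7% in clone 1, and 29.0% and 28.4% in clone 2. The Gabarap share was 63.5% and 62.9% in WT and 55.1% to 57.8% in the knockouts. The LC3 genes together held 11.4% to 13.6% in all 6 libraries. The ATG8 sum was 296 and 304 TPM in WT and 429 to 466 TPM in the knockouts, while on the CPM scale its group means were 454 in WT, 509 in clone 1 and 514 in clone 2. TPM values were therefore compared only within a library.

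GC content went with the change across the whole transcriptome. In GC class 1 (27.5% to 43.8% GC) the median log2 fold change of the knockout mean was 0.37 and 35.2% of genes were called higher. In class 5 (55.4% to 78.3%) the median was −0.21 and 6.67% were called higher. Rb1cc1 (39.1% GC) and Tax1bp1 (39.6%) belong to class 1. Gabarapl1 (52.7%) belongs to class 4, where the median was −0.12 and 8.23% of genes were called higher. Optn (50.7%) belongs to class 3, with a median of −0.03. Longer genes were also called higher more often, from 7.39% in the shortest of 5 length classes to 27.3% in the longest. Both properties were also fitted out of each library, which removes any change that goes with them, whatever its source. Their part in the changes of single members was not tested. The corrected log2 fold change was 3.04 for Optn, 0.63 for Rb1cc1, 0.75 for Gabarapl1 and 0.25 for Tax1bp1.

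**Figure D4:**
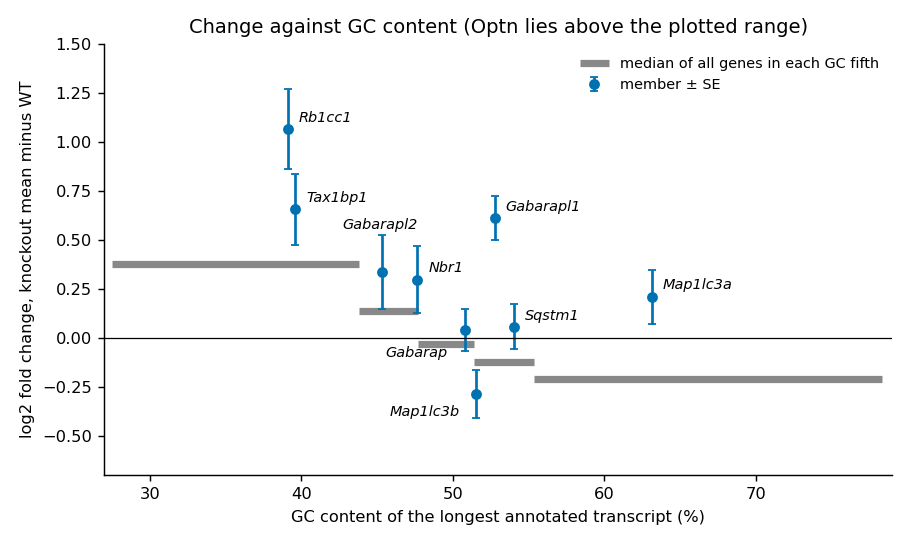
Log2 fold change of the knockout mean for 9 members against the GC content of their longest transcript, with SE, and the median of all tested genes in each of 5 GC classes (grey bars). Rb1cc1 and Tax1bp1 lie over the class with a median of 0.37, and Gabarapl1 lies over a class with a median of −0.12; Optn, at 2.95, is outside the plotted range.

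Promoter sequence was read for the members that stood higher, to show what lies before their start sites. The RefSeq table (build GRCm38.p6) held 10 start sites for 8 of the members, with no entry for Map1lc3a and Rb1cc1. The sequences below end at the RefSeq or the GENCODE start, whichever comes first, run 5′ to 3′ on the strand of the gene, and hold none of the motifs searched, so they carry no capitals. They lie at chr2:5064118-5064367 (minus strand) for Optn, chr6:129532942-129533159 (plus strand) for Gabarapl1 and chr6:52713479-52713728 (plus strand) for Tax1bp1. The stretches before Gabarapl1 and Tax1bp1 lie in exons of 1700101I11Rik and Gm43966, annotated on the opposite strand without a coding sequence.
Optn: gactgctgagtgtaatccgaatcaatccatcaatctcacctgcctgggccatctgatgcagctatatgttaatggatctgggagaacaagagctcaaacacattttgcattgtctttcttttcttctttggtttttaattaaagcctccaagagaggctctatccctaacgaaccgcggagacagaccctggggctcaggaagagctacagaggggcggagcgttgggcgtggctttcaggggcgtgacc
Gabarapl1: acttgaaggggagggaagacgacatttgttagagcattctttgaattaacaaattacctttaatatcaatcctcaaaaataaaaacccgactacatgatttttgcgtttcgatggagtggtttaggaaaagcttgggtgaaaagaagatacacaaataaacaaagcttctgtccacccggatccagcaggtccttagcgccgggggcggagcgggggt
Tax1bp1: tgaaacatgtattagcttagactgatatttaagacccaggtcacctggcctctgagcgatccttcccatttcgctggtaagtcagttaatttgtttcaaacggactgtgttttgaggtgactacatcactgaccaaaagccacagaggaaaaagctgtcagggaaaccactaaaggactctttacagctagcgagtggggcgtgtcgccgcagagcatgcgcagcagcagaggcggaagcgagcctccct

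The motifs were searched on both strands of the 250 bases before each RefSeq start. CACGTG, the E-box at the core of the element bound by TFEB, was in 0 of the 10 member windows and in 6.02% of 32851 promoters. TGACTCA, the AP-1 site, was in 0 of 10 and in 4.46%. TGACNNNGC, the core of the antioxidant response element, was in 10.2% of all promoters and in 1 of the 10. That match, TGACGAAGC, lies before a second start of Tax1bp1, at chr6:52713960-52713968, in an intron. These letters are common enough in promoters that 1 match in 10 is near the background. The 3 printed stretches hold 8, 9 and 10 CpG dinucleotides in that order, against a median of 6 in the 250 bases before all starts. The printed stretch of Gabarapl1 has only 218 bases, and its full window of 250 bases holds 12.

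Of 97 further autophagy genes listed by step of the pathway, 93 were tested, 15 rose and 11 fell in the knockout mean. That is 28.0% of those tested, against 34.8% of all genes. Tbkbp1, Calcoco2 and Vamp7 were among those not tested because of low counts. The median log2 fold change was 0.02. Of 20 other selective receptor genes 6 rose and 2 fell, with a median of −0.05. Bnip3l, a mitophagy receptor also called NIX, rose from 5.98 and 13.0 CPM in WT to 18.2 to 24.3 CPM, a change of 1.04 ± 0.21 (edgeR adjusted p = 0.00213). Fits that left out 1 library gave 0.73 to 1.85 for Bnip3l, the highest without WT replicate 2. With GC and length fitted out its change was 0.73. Ncoa4, the receptor for ferritin, rose by 0.90 ± 0.26 (adjusted p = 0.0165). Tollip, a ubiquitin-binding adaptor, fell (−0.58 ± 0.11, adjusted p = 0.00113). The mitochondrial prohibitin gene Phb2, at −0.36 ± 0.13 (adjusted p = 0.0420), lost its call in 5 of 6 fits that left out a library (all but that without WT replicate 2). Its values there ran from −0.55 without WT replicate 2 to −0.14 without WT replicate 1, and its call was also lost with unstranded counts and once GC and length were fitted out.

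Kinases and adaptors that act on the receptors included 3 rises and 0 falls among 10 tested, where 34.8% of all genes were called, so the share called is near the background. Tbk1, the kinase that phosphorylates optineurin, had 15.2 and 20.3 CPM in WT, 29.8 and 33.5 CPM in the clone 1 libraries, with 31.5 and 32.1 CPM for clone 2. It rose by 0.79 ± 0.15 (edgeR adjusted p = 0.00140), and no knockout library overlapped WT. The deubiquitinase gene Cyld rose by 0.92 ± 0.18 (adjusted p = 0.00177). Myo6 and Rab8a, which encode binding partners of optineurin, were at −0.30 ± 0.25 and −0.01 ± 0.11 and were not called. For membrane supply, 1 of 10 genes rose and 3 fell. Wipi1, which binds the lipid of the nascent membrane, rose by 0.73 ± 0.20 (adjusted p = 0.0111). Fits that left out 1 library gave 0.50 to 1.29 for Wipi1, the highest without WT replicate 2. Vmp1, an endoplasmic reticulum scramblase, fell (−0.59 ± 0.10, adjusted p = 7.51e-04). The fall of Wdr45 (−0.61 ± 0.20, adjusted p = 0.0296) was lost with DESeq2 and in 4 of 6 fits that left out a library: the fits lacking WT replicate 2, clone 1 replicate 2, clone 2 replicate 1 and clone 2 replicate 2. Its values there were −0.63 to −0.54.

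**Figure D5:**
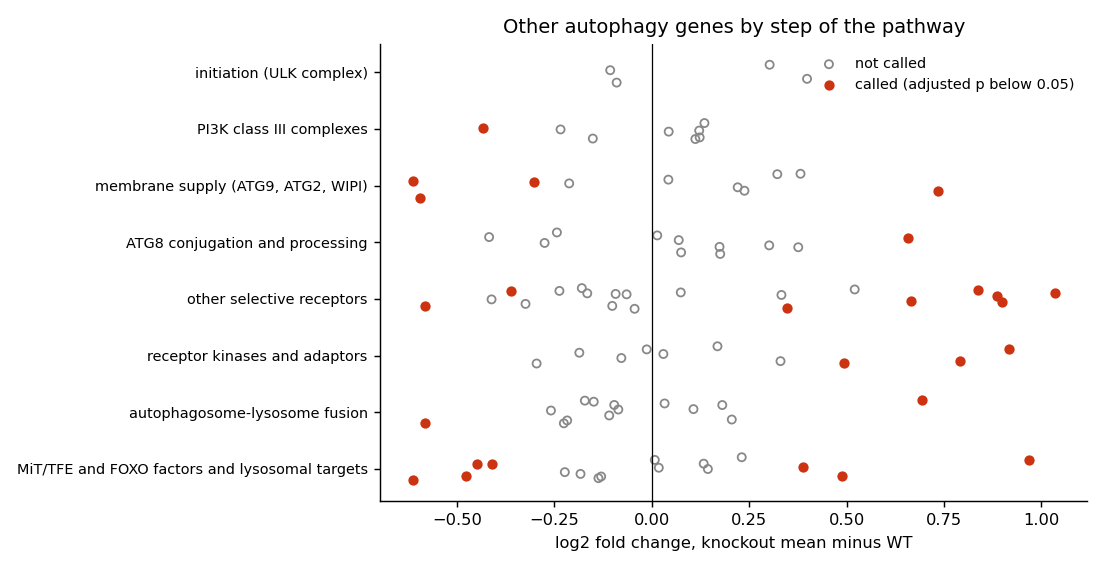
Log2 fold change of the knockout mean for 93 further autophagy genes, in rows by step of the pathway. Filled points are called by edgeR and open points are not. The 26 called genes lie on both sides of 0, with 6 rises among the other selective receptors. No gene is called in the row of the ULK complex, which leaves out Rb1cc1.

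The lipid kinase complexes held 0 rises and 1 fall among 8 genes, that of the inhibitor gene Rubcn (−0.43 ± 0.11, edgeR adjusted p = 0.00851). In the ATG8 conjugation system 1 of 11 genes rose, Atg16l2, a paralog of the conjugation factor gene Atg16l1, by 0.66 ± 0.14 (adjusted p = 0.00321). Among 14 fusion genes, the HOPS tether gene Vps39 rose by 0.69 ± 0.14 (adjusted p = 0.00162) and Tecpr1 fell (−0.58 ± 0.13, adjusted p = 0.00332), or −0.35 once GC and length were fitted out. Of 16 transcription factors and lysosomal genes 3 rose and 4 fell. The lysosomal membrane gene Lamp2 rose by 0.97 ± 0.18 (adjusted p = 0.00119), or by 0.54 after that correction. Atp6v1h, a proton pump subunit gene, was at 0.49 ± 0.11 (adjusted p = 0.00386), and at −0.00272 after it (adjusted p = 0.989). The transcription factor gene Tfe3 fell (−0.48 ± 0.12, adjusted p = 0.00786), while Tfeb, at −0.13 ± 0.17, was not called. In the order given, 12.5%, 9.09%, 14.3% and 43.8% of the genes tested in these lists were called, against 34.8% of all genes.

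The genes whose log2 CPM followed that of Optn most closely over the 6 libraries were Anxa1 (Pearson r = 0.999), Msl3 (0.997), Gbe1 (0.995), Atp1b1 (0.995) and Epb41l4a (0.995). They lead 8824 protein-coding genes whose average log2 CPM reached 3. The correlations are a description, since the 6 libraries fall into WT and knockout and the points share both clones. Like Optn, Anxa1 was lowest in WT (370.3 and 402 CPM), highest in clone 1 (641 and 645 CPM) and between these in clone 2 (599 and 576 CPM). The tested protein-coding genes on either side of Optn also rose, by less. Among all genes tested 16.6% were called higher and 34.8% in either direction. Whether the rises of the neighbours go with that of Optn was not tested. Mcm10, a replication factor gene 7851 bases away, went from 65.5 and 65.0 CPM in WT to 80.4 to 107 CPM, a change of 0.52 ± 0.12 (edgeR adjusted p = 0.00357). Cdc123, 730243 bases away on the other side, changed by 0.63 ± 0.12 (adjusted p = 0.00117).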

How the data were processed

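Stranded libraries were made from rRNA-depleted total RNA of NIH/3T3 cells, per the labels' protocols. Per the submitters' processing notes, STAR 2.6.0c and the build GRCm38 were used. The authors deposited raw read counts per Ensembl gene. The authors' annotation release: not given in the sources used here. Reverse-strand counts were used, and rows naming no gene (46.6% to 50.5% of reads) were left out. GENCODE M21 (GRCm38) matched 54079 of 54146 identifiers.

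All 6 libraries were fitted with edgeR 4.0.16 in R 4.3.3 (filterByExpr, minimum count 10, TMM factors 0.951 to 1.03, quasi-likelihood test, 3 residual degrees of freedom) with 1 coefficient per group. A gene counted as called below 0.05 after Benjamini-Hochberg adjustment over 13120 genes. The edgeR, limma-voom and DESeq2 fits of the knockout mean were tried on simulated counts. Those counts had a small share of changed genes and no GC trend. The other steps were not tried on simulated counts. SE is the size of the log2 fold change over the root of F. The labels do not say whether replicates are separate cultures, and the p-values therefore reflect the spread of these libraries alone, which may be technical. A floor of 3 counts corresponds to 0.152 to 0.775 CPM without TMM factors, depending on the library. TPM used exon union lengths and was read within a library. Copies of member transcripts were found by sequence search (at least 90% identity over 200 bases).

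The alternatives were RLE scaling, DESeq2 1.42.0, limma-voom 3.58.1, no low-count filter, unstranded counts, a replicate block and leaving out each library. The correction for GC content and length was added after seeing the data. Members and lists were chosen with earlier results of these data known. The genes named are all members, Mki67, up to 2 called genes per direction of each pathway list with the largest changes, the 5 genes most like Optn and its nearest neighbours; some listed genes are not reported here. Atg13, Ulk1, Ulk2, Atg101, Myo6, Rab8a, Tfeb, Calcoco1 and the genes not tested were named after their values were seen.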

Additional observations from a re-analysis of the deposited data

Results flagged for a closer look

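Among the further autophagy genes, 1 differed between the clones. Calcoco1, a receptor gene related to Tax1bp1, had 29.6 and 29.0 CPM in WT, 33.0 and 33.3 CPM in the clone 1 libraries, with 20.4 and 19.9 CPM for clone 2. Both clone 1 libraries lay above WT and both clone 2 libraries below it. Against WT the change in clone 1, 0.18 ± 0.15, was not called (edgeR adjusted p = 0.374). That in clone 2, −0.54 ± 0.15, was called lower (adjusted p = 0.0164). The log2 difference of clone 2 minus clone 1 was −0.72 ± 0.14 (edgeR adjusted p = 0.00967). Without clone 2 replicate 1 the difference was −0.74 and no longer called (adjusted p = 0.121). The same held without clone 2 replicate 2 (−0.70, adjusted p = 0.174). It was called in the other 11 alternatives (−0.75 to −0.66). Of the 93 genes tested in these lists, 1.08% were called between clones, against 3.54% of all genes.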

How the results depend on the processing

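Over 10 members, 4 comparisons and 13 alternatives, 504 of 520 values kept their direction where called and their side of the threshold, 12 became called and 4 lost their call. The tally includes the Optn changes against WT, which chose the gene and were called throughout. It also includes the differences between clones, where no member was called in any alternative. The count of other members called stayed at 3 or 4, but with GC and length fitted out the 3 were Rb1cc1, Gabarapl1 and Map1lc3a, without Tax1bp1. The rise of Atp6v1h was no longer seen once GC and length were fitted out (−0.00272, adjusted p = 0.989); the cause was not tested. Leaving out 1 library gave 3359 to 4449 called genes in the mean, 2205 to 4348 in clone 1 and 1669 to 4010 in clone 2. Between clones it gave 156 to 1208, beside 465 with all libraries, 813 without a low-count filter and 884 once GC and length were fitted out. That fit moved the share of higher calls between clones from 33.3% to 44.3%. The labels do not say whether replicate numbers pair the samples. Deviations of replicates from their group mean correlated at 0.27 between WT and clone 1, which does not settle it. They correlated at −0.09 between WT and clone 2 and at −0.11 between the clones. With the replicate block, 4874, 4447, 3955 and 634 genes were called in the 4 comparisons, and Tax1bp1 became called in clone 1 (0.50, adjusted p = 0.0297). Depth limits Optn most, with 7 counts in WT replicate 1.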
